A study of Homo sapiens with 48 samples.

Results

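The 41 mitosis genes described here encode the cyclins, kinases, checkpoint proteins, kinetochore proteins, motors and cytokinesis factors that take a cell through division, together with FOXM1, a transcription factor of this programme. They were listed by their function, with earlier results of these data known, were found in the deposited count table by gene symbol, and are 41 of its 37706 genes. Messenger RNA was sequenced from 4 established human lines of germinal centre B cell diffuse large B cell lymphoma (GCB-DLBCL), each from a single tumour: Oci-Ly7 and Oci-Ly8, SUDHL6, and Oci-Ly18. Each line was grown with EPZ-5676, an inhibitor of DOT1L (DOT1Li), with GSK343, an inhibitor of EZH2 (EZH2i), with both (the combination) or with DMSO, and was harvested after 6 days, having been reseeded in fresh medium and drug on day 3. The labels give no dose. Each of the 16 groups holds 3 libraries, 48 in all. The labels do not say whether replicates came from separate cultures, so each p-value speaks for the spread between libraries alone.

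Cells enter mitosis when CDK1, bound to A- and B-type cyclins and freed of inhibitory phosphates by CDC25 phosphatases, becomes active. The spindle checkpoint then holds the anaphase-promoting complex (APC/C) back until every kinetochore is attached, after which APC/C with CDC20 destroys cyclin B and securin, and separase cuts the cohesin between sister chromatids. Most of these genes are transcribed late in the cell cycle, through CHR elements that bind the MuvB complex with B-MYB and FOXM1, and through CCAAT boxes that bind NF-Y. Germinal centre B cells are among the fastest dividing cells in the body. EZH2 is the methyltransferase of PRC2, a Polycomb complex that marks histone H3 at silenced genes, and DOT1L methylates histone H3 in the bodies of transcribed genes.

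Library totals ran between 5174269 and 18845074 counts, with a median of 14499938 and a second lowest of 11391942. The B cell genes CD79A, CD79B, MS4A1 and PAX5 and the germinal centre genes BCL6, MME and MYBL1 had counts in all 48 libraries, while the T cell genes CD3D and CD2 were at 0 in 36 and 37 and the epithelial gene EPCAM at 0 in 45. Other markers of foreign cell types were present at low levels: the T cell gene CD3E reached 3.23 CPM (counts scaled to the library's size), the epithelial gene KRT8 7.62 CPM, the myeloid gene LYZ 18.6 CPM and the fibroblast gene COL1A1 15.6 CPM, while the fibroblast gene COL1A2 was at 0 in 31 libraries. For some, treated and DMSO libraries did not overlap. The 2 fibroblast genes summed to 12.7 to 15.6 CPM with the combination against 5.57 to 6.11 CPM with DMSO in SUDHL6, and to 10.9 to 12.3 CPM against 2.55 to 4.08 CPM in Oci-Ly18. They were higher with the combination in the other lines too, at 2.14 to 3.6 CPM against 0.0674 to 0.274 CPM in Oci-Ly7. In Oci-Ly8 they summed to 2.42 to 2.69 CPM against 0 to 0.172 CPM. The 2 epithelial genes summed to 5.76 to 7.62 CPM against 1.91 to 2.69 CPM in Oci-Ly18. The 3 myeloid genes summed to 14.6 to 17.6 CPM with the combination against 14.7 to 15.9 CPM with DMSO in SUDHL6. The part of these genes in the results was not tested. Replicate 3 of DOT1Li and of DMSO in Oci-Ly8 were short of counts from long transcripts: the slope of log2 counts on log2 exonic length was 0.233 and 0.202 in them and 0.379 or more in every other library. MKI67, which encodes the proliferation antigen Ki-67 on a long transcript, showed it directly: in Oci-Ly8 it had 1000, 1110 and 519 CPM with DOT1Li, against 1070, 1000 and 465 CPM with DMSO. The calls against DMSO in Oci-Ly8 are therefore also given without these libraries. In bulk RNA, fewer cells in mitosis and less RNA per cell cannot be told apart.

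Promoter windows from RefSeq (GRCh38.p14), 250 bases before to 50 bases after each gene's start, were found for 34 of the 41 members; AURKA, BUB3, TTK, UBE2C, BIRC5, TPX2 and FOXM1 had no entry. They were searched on both strands for the CHR (TTTGAA or TTCGAA), for CCAAT and for an E2F motif (TTTNNCGC), where matches of different motifs may overlap, and a gene with several windows counted once. A CHR stood in the window of 26 of the 34 members, 76.5%, against 19.5% of the 27305 genes with a window. Within 50 bases of the start, a limit chosen after the data were seen, it stood in 21 members, 61.8%, against 6.24% of all genes. A CCAAT box stood in 28 members, 82.4%, against 39.7%, and both elements in one window in 22, 64.7%, against 7.85%. The E2F motif stood in 5 members, 14.7%, against 8.23%. The 250 bases before the start are printed for 4 members that the results return to, 5′ to 3′ on the gene's own strand, with CHR and CCAAT matches in capitals (on the opposite strand they read TTCAAA and ATTGG). CCNB2, a B-type cyclin whose promoter holds 1 CHR and 4 CCAAT boxes, lies at chr15:59104896-59105145 on the plus strand. PLK1, the kinase with the deepest fall in SUDHL6, lies at chr16:23678639-23678888 on the plus strand with 1 match of each. TOP2A, which rose in Oci-Ly7 and Oci-Ly8, lies at chr17:40417897-40418146 on the minus strand with 2 CHR and 4 CCAAT matches. KIF2C, whose level followed the other members most closely, lies at chr1:44739587-44739836 on the plus strand and holds none of these letters.
CCNB2: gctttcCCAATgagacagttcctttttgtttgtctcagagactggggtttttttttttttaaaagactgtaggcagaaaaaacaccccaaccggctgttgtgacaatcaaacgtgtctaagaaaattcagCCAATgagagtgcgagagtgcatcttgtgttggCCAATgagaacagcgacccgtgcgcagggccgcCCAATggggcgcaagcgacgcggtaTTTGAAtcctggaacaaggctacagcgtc
PLK1: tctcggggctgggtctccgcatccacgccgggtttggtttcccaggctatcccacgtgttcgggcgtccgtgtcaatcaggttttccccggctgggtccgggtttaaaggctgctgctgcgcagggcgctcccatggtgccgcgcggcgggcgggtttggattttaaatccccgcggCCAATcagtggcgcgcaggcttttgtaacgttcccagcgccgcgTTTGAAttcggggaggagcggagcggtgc
TOP2A: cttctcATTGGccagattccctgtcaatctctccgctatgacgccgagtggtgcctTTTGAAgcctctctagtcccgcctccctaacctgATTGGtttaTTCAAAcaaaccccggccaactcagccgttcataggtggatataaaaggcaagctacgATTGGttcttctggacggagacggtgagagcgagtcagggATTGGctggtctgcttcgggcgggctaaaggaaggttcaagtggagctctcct
KIF2C: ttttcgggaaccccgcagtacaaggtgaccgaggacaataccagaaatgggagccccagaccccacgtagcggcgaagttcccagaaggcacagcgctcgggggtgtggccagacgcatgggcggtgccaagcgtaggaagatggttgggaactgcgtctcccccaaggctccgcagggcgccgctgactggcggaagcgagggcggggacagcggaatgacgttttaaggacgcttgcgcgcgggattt

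With DMSO alone, the lines expressed the programme at unequal levels. The summed level of the 41 members averaged 9796 ± 404 CPM in Oci-Ly7, 9406 ± 367 CPM in Oci-Ly18, 7911 ± 229 CPM in SUDHL6 and 6555 ± 361 CPM in Oci-Ly8 (SD, n = 3 each), where the first 2 differed by about their spread. The sum is weighted to abundant genes: in Oci-Ly18 TOP2A alone had 1750, 1870 and 1840 CPM and MKI67 1600, 1690 and 1450 CPM. The Oci-Ly8 mean includes DMSO replicate 3, which was short of long transcripts. The order of the lines was not the same for every member. TOP2A, the topoisomerase that untangles sister chromatids, reached 283 ± 9.66 RPKM (CPM per kilobase of exon) in Oci-Ly18, 156 ± 2.93 RPKM in Oci-Ly7, 147 ± 3.33 RPKM in SUDHL6 and 62.8 ± 4.87 RPKM in Oci-Ly8 (SD, n = 3 each). CDC25B, a phosphatase that starts CDK1 activation, was at 74.1 ± 2.04 RPKM in Oci-Ly18 and 30.2 ± 1.55 RPKM in Oci-Ly7, while its 15.9 ± 0.87 RPKM in SUDHL6 and 14.4 ± 1.25 RPKM in Oci-Ly8 overlapped within their spread. CCNA2, the cyclin of S phase and mitotic entry, stood at 112 ± 3.3 RPKM in Oci-Ly7 and at 62.4 to 68.2 RPKM in the other lines. All 40 tested members differed in DMSO level between lines, as did 93.1% of all genes tested. NUSAP1, a spindle protein, had 0 to 4 counts per library and was not tested. Another annotated gene, with a median of 0 counts, overlaps NUSAP1 on its own strand. The low counts may therefore not show its expression, and whether its reads were left out in counting was not tested. PRC1, the midzone crosslinker, had 10 to 47 counts and is overlapped on its own strand by another annotated gene with more counts, so its values are uncertain, as are those of CENPA, the centromeric histone, which also shares its strand with another gene.

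Calls with EZH2i and the combination split the lines into pairs, and those with DOT1Li did not. EZH2i and the combination lowered much of the programme in SUDHL6 and Oci-Ly18. In Oci-Ly7 and Oci-Ly8 the combination moved fewer members, in both directions. There 5% and 10% of members were called lower, against 12.2% and 16.9% of all genes. Called higher were 20% and 27.5%, against 17.7% and 18.1% of all genes. Calls below are from edgeR's quasi-likelihood F test over all 48 libraries, at an adjusted p under 0.05 over the 17749 genes tested, and effects are log2 fold changes of treated over DMSO with their standard errors.

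**Figure D1:**
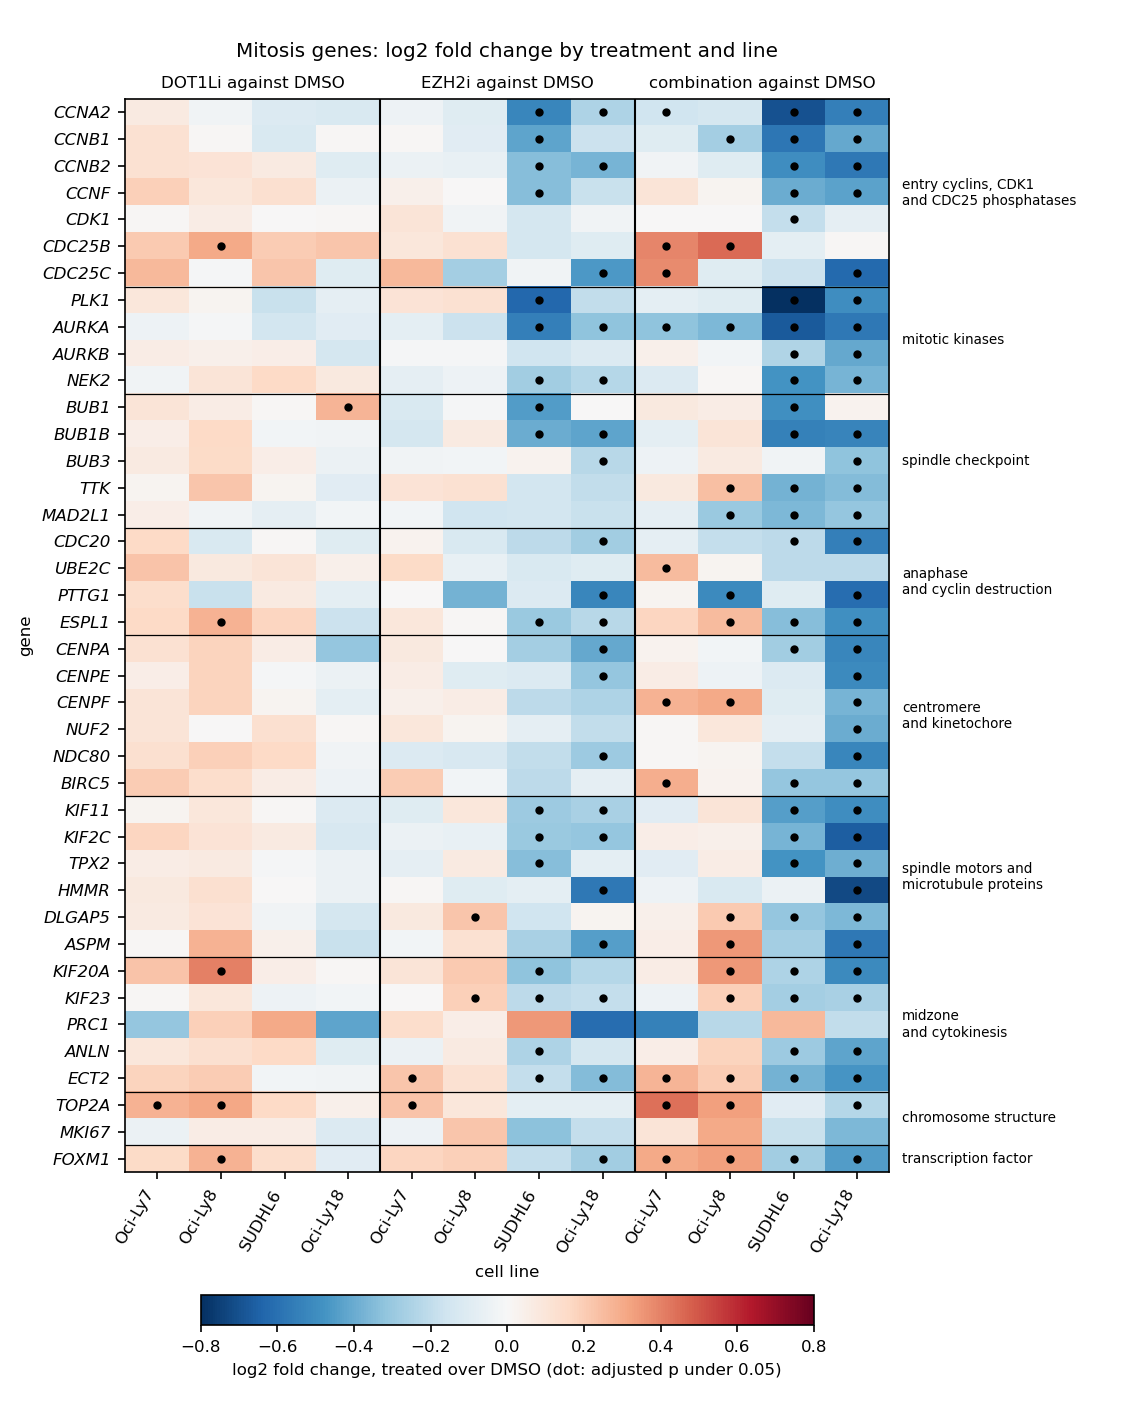
Log2 fold change against DMSO of the 40 tested members (rows, by role) for each treatment in each line (columns), with calls marked. Falls fill the SUDHL6 and Oci-Ly18 columns of EZH2i and the combination, 17 and 20 and then 26 and 34 calls, while the Oci-Ly7 and Oci-Ly8 columns hold calls in both directions with the combination.

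DOT1Li alone moved few members, and those called in the main fit rose. Of the calls in single lines, only KIF20A in Oci-Ly8 held in all 13 alternative settings of its comparison. With each line fitted alone, 2 members were called lower in Oci-Ly18 and 1 in SUDHL6. In Oci-Ly7 TOP2A rose (1 of 40 members, 2.5%, against 1.72% of all genes called higher and 1.17% called lower). In Oci-Ly8 CDC25B, ESPL1, KIF20A, TOP2A and FOXM1 rose (5 of 40, against 3.53% called higher and 2.73% called lower), in Oci-Ly18 BUB1 rose (1 of 40, against 4.03% and 2.12%), and in SUDHL6 no member was called in either direction, against 2.11% of all genes called lower and 2.76% called higher. There edgeR gave 5 members at an unadjusted p under 0.05, and DESeq2 called 1. The medians over members were 0.095 in Oci-Ly7, 0.107 in Oci-Ly8, 0.047 in SUDHL6 and -0.063 in Oci-Ly18. TOP2A had 1080, 1340 and 1240 CPM with DOT1Li against 1010, 1020 and 984 CPM with DMSO in Oci-Ly7, a change of 0.28 ± 0.06 (adjusted p = 0.00624). All DOT1Li libraries lay above all DMSO libraries, replicate 1 the nearest. The count in Oci-Ly7 was 4 without DOT1Li replicate 1 and 0 without DOT1Li replicate 2, and BUB1 in Oci-Ly18 lost its call without DOT1Li replicate 2. In Oci-Ly8 the count was 9 without DMSO replicate 3, 8 without DOT1Li replicate 3, 2 without DOT1Li replicate 1 and 3 without DOT1Li replicate 2. With both libraries short of long transcripts left out it was again 5, where CDC25B lost its call (0.30, adjusted p = 0.0513) and NDC80 rose (0.27, adjusted p = 0.0274). In SUDHL6, where replicate numbers pair the libraries, CDC25B at 0.20 passed with the replicate as a block (adjusted p = 0.0285). Averaged over lines, CDC25B (0.23 ± 0.04, adjusted p = 3.25e-05), TOP2A (0.20 ± 0.03, adjusted p = 1.57e-05), KIF20A, FOXM1 and BUB1 rose, 5 of 40 against 5.08% of all genes called higher and 5.19% called lower, or 3 of 40 without Oci-Ly18 DOT1Li replicate 2.

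EZH2i alone lowered 17 of 40 members in SUDHL6, 42.5%, against 8.67% of all genes called lower, and 20 of 40 in Oci-Ly18, 50%, against 9.04%. Their medians were -0.208 and -0.224, where the medians of all genes were 0.035 and 0.010. In Oci-Ly7 ECT2 and TOP2A rose (2 of 40, against 8.78% of all genes called higher and 4.92% called lower) and in Oci-Ly8 DLGAP5 and KIF23 rose (2 of 40, against 9.04% and 7.94%). The medians over members were 0.020 in Oci-Ly7 and -0.003 in Oci-Ly8. The Oci-Ly7 count was 1 without DMSO replicate 1 or 3 or EZH2i replicate 2 or 3, and TOP2A held in every alternative. The Oci-Ly8 count was 6 without DMSO replicate 2, 0 without DMSO replicate 1 or 3 or EZH2i replicate 2, and 1 without EZH2i replicate 1 or 3, and 7 members fell there without DMSO replicate 1. With both libraries short of long transcripts left out it was 3, where KIF23 lost its call (0.15, adjusted p = 0.0927) and NUF2 (0.22, adjusted p = 0.0408) and TOP2A (0.17, adjusted p = 0.0406) rose. The 10 members lowered in both SUDHL6 and Oci-Ly18 were CCNA2, CCNB2, AURKA, NEK2, BUB1B, ESPL1, KIF11, KIF2C, KIF23 and ECT2, against 2.56% of all genes with that pattern. The Oci-Ly18 count was 12 without EZH2i replicate 1. The SUDHL6 count was 24 with the replicate as a block and 29 without the 2 Oci-Ly8 libraries short of long transcripts, which share the estimate of spread. Averaged over lines, EZH2i lowered 18 of 40 members, against 12.5% of all genes called lower and 15.7% called higher, with AURKA at -0.28 ± 0.04 (adjusted p = 5.88e-07) and CCNA2 at -0.23 ± 0.03 (adjusted p = 2.78e-08).

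The combination lowered 26 of 40 members in SUDHL6, 65%, against 16.8% of all genes, and 34 of 40 in Oci-Ly18, 85%, against 14%. The medians were -0.279 and -0.425, against 0.051 for all genes in each line. In Oci-Ly7 2 members fell, against 12.2% of all genes, and 8 rose, against 17.7%. In Oci-Ly8 4 members fell, against 16.9%, and 11 rose, against 18.1%. There the median was 0.035, and in Oci-Ly7 0.036. In SUDHL6 and Oci-Ly18 edgeR called no member higher with EZH2i, against 14% and 13% of all genes, or with the combination, against 22.6% and 21.1%, and no member was higher there at an unadjusted p under 0.05 or by DESeq2. Averaged over lines, 27 members fell with the combination, against 20.7% of all genes, or 21 by DESeq2, and CDC25B and TOP2A rose, against 25.7%. Of the calls, 21 of 26 in SUDHL6, 33 of 34 in Oci-Ly18, 6 of 10 in Oci-Ly7 and 5 of 15 in Oci-Ly8 held in all 13 alternative settings of each comparison. In Oci-Ly7 the falls numbered 1 without DMSO replicate 2 or 3 or combination replicate 2 or 3, and the rises 5 without combination replicate 3. In Oci-Ly8 the falls numbered 7 without DMSO replicate 1 and 1 without DMSO replicate 3, and the rises 5 without DMSO replicate 3 and 7 without combination replicate 1. With both libraries short of long transcripts left out, Oci-Ly8 had 1 fall, of AURKA, and 13 rises. With the replicate as a block, 29 members fell in SUDHL6, where UBE2C, NDC80 and ASPM were added.

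**Figure D2:**
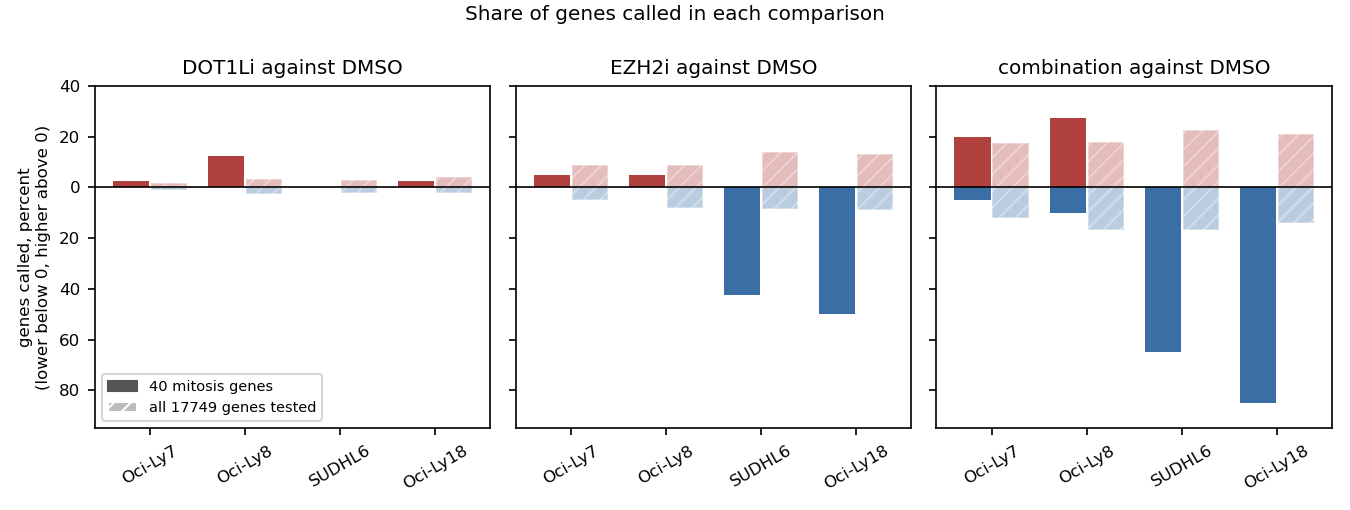
Percent of tested genes called lower and higher with each treatment in each line, for the mitosis genes beside all 17749 genes tested. The members' share lower reaches 85% against 14% with the combination in Oci-Ly18 and 65% against 16.8% in SUDHL6.

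The libraries moved as groups. With the combination, the median member lay 0.251 to 0.336 below the DMSO mean on the log2 scale in the 3 SUDHL6 libraries and 0.314 to 0.502 below it in the 3 Oci-Ly18 libraries. With EZH2i the medians were -0.174 to -0.281 in SUDHL6 and -0.193 to -0.268 in Oci-Ly18. The SUDHL6 DMSO libraries lay between -0.035 and 0.031 and the Oci-Ly18 DMSO libraries between -0.035 and 0.062, so neither treatment overlapped DMSO in those lines. The summed level of the members was 6636 ± 240 CPM with the combination and 6682 ± 260 CPM with EZH2i, against 7911 ± 229 CPM with DMSO, in SUDHL6. In Oci-Ly18 it was 7351 ± 483 CPM with the combination and 8235 ± 203 CPM with EZH2i, against 9406 ± 367 CPM with DMSO (SD, n = 3 each).

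**Figure D3:**
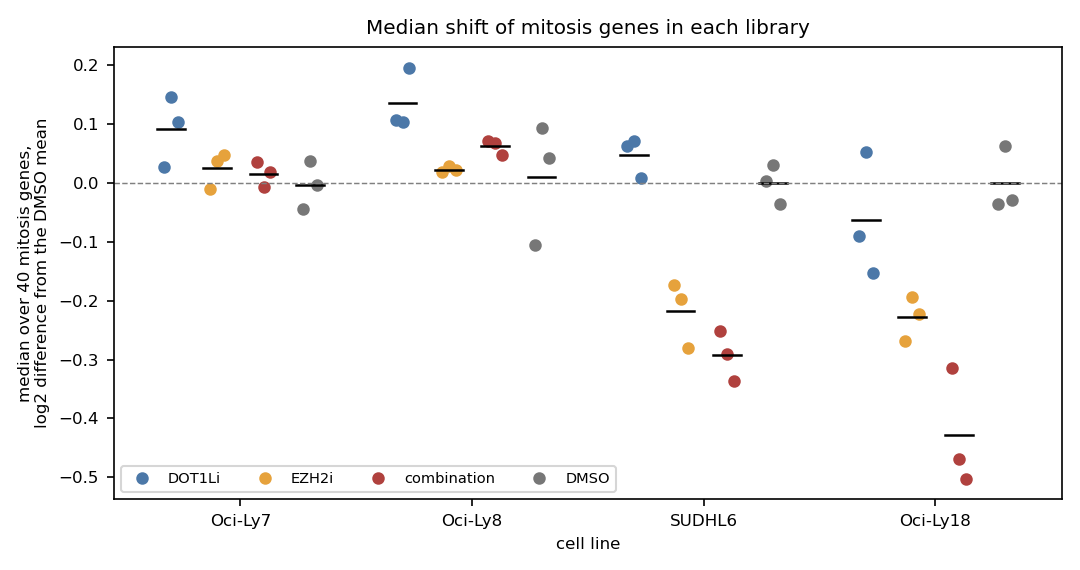
Median log2 difference of the 40 members from the DMSO mean of the same line, 1 point per library, by treatment and line. EZH2i and combination libraries of SUDHL6 and Oci-Ly18 lie below all of their DMSO libraries, with combination points between -0.251 and -0.502.

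Among the entry genes, 5 of 7 fell with the combination in SUDHL6 and 5 of 7 in Oci-Ly18. CCNA2 had 118, 111 and 122 CPM with the combination against 190, 197 and 187 CPM with DMSO in SUDHL6, a fall of 38.6% (-0.70 ± 0.06, adjusted p = 2.7e-13). In Oci-Ly18 it had 130, 123 and 122 CPM against 174, 193 and 181 CPM (-0.55 ± 0.06, adjusted p = 2.87e-10). Neither pair of groups overlapped. CCNB1, the main mitotic cyclin, had 87.7, 82 and 88.9 CPM against 131, 125 and 130 CPM in SUDHL6 (-0.58 ± 0.09, adjusted p = 3.4e-07). CCNB2, whose promoter is shown above, had 55.9, 53.9 and 51.1 CPM against 76.3, 77.9 and 73.8 CPM in SUDHL6 and 60.1, 51.4 and 49.7 CPM against 77.2, 84.1 and 78.2 CPM in Oci-Ly18. CDK1 itself moved little: with the combination it had 129, 132 and 130 CPM against 147, 156 and 144 CPM in SUDHL6 (-0.19 ± 0.07, adjusted p = 0.0362) and 108, 101 and 93.7 CPM against 111, 102 and 104 CPM in Oci-Ly18 (-0.07 ± 0.08, adjusted p = 0.548). The 2 phosphatases did not follow one pattern. CDC25B had 171, 182 and 158 CPM with the combination against 123, 136 and 131 CPM with DMSO in Oci-Ly7 (0.39 ± 0.08, adjusted p = 6.89e-05), and 85.8, 88.2 and 81 CPM against 56.3, 67 and 63.1 CPM in Oci-Ly8 (0.45 ± 0.08, adjusted p = 1.33e-05, or 0.49 without the libraries short of long transcripts), with no overlap in either line. In SUDHL6 and Oci-Ly18 its changes were -0.08 ± 0.08 and 0.01 ± 0.07, which did not pass. CDC25C, which acts on CDK1 at entry, rose in Oci-Ly7 (0.38 ± 0.12, adjusted p = 0.0116) and fell in Oci-Ly18 (-0.62 ± 0.15, adjusted p = 0.000961), at 8.72 ± 0.722 CPM or more with DMSO (SD, n = 3).

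All 4 mitotic kinases fell with the combination in SUDHL6 and in Oci-Ly18. PLK1, which drives centrosome maturation and mitotic exit, had 87.5, 78.6 and 84.8 CPM with the combination against 153, 143 and 141 CPM with DMSO in SUDHL6, a fall of 42.6% (-0.80 ± 0.09, adjusted p = 1.98e-10). In Oci-Ly7 it had 193, 175 and 194 CPM against 178, 212 and 203 CPM, which overlapped (-0.08 ± 0.08, adjusted p = 0.55). AURKA, the kinase of spindle poles, was the 1 member of 40 called lower in all 4 lines. That share is near the 1.92% of all genes with this pattern. It had 49.4, 49.8 and 45.8 CPM with the combination against 76.6, 81 and 72.4 CPM with DMSO in SUDHL6 (-0.67 ± 0.08, adjusted p = 1.14e-08) and 66.3, 55 and 50.2 CPM against 86.5, 87.6 and 80.3 CPM in Oci-Ly18 (-0.57 ± 0.08, adjusted p = 4.62e-07). Its values were 109, 92.9 and 106 CPM against 126, 133 and 128 CPM in Oci-Ly7 (-0.32 ± 0.08, adjusted p = 0.00171), and 77.2, 74 and 71.9 CPM against 80.1, 108 and 98.7 CPM in Oci-Ly8 (-0.36 ± 0.08, adjusted p = 0.000547, or -0.31 without the libraries short of long transcripts). The groups did not overlap in any line, and the 4 calls held in every alternative. AURKB, the kinase that corrects kinetochore attachments, fell by 0.41 on the log2 scale in Oci-Ly18 and by 0.24 in SUDHL6. NEK2, a centrosome kinase, fell by 0.48 in SUDHL6 and by 0.37 in Oci-Ly18.

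**Figure D4:**
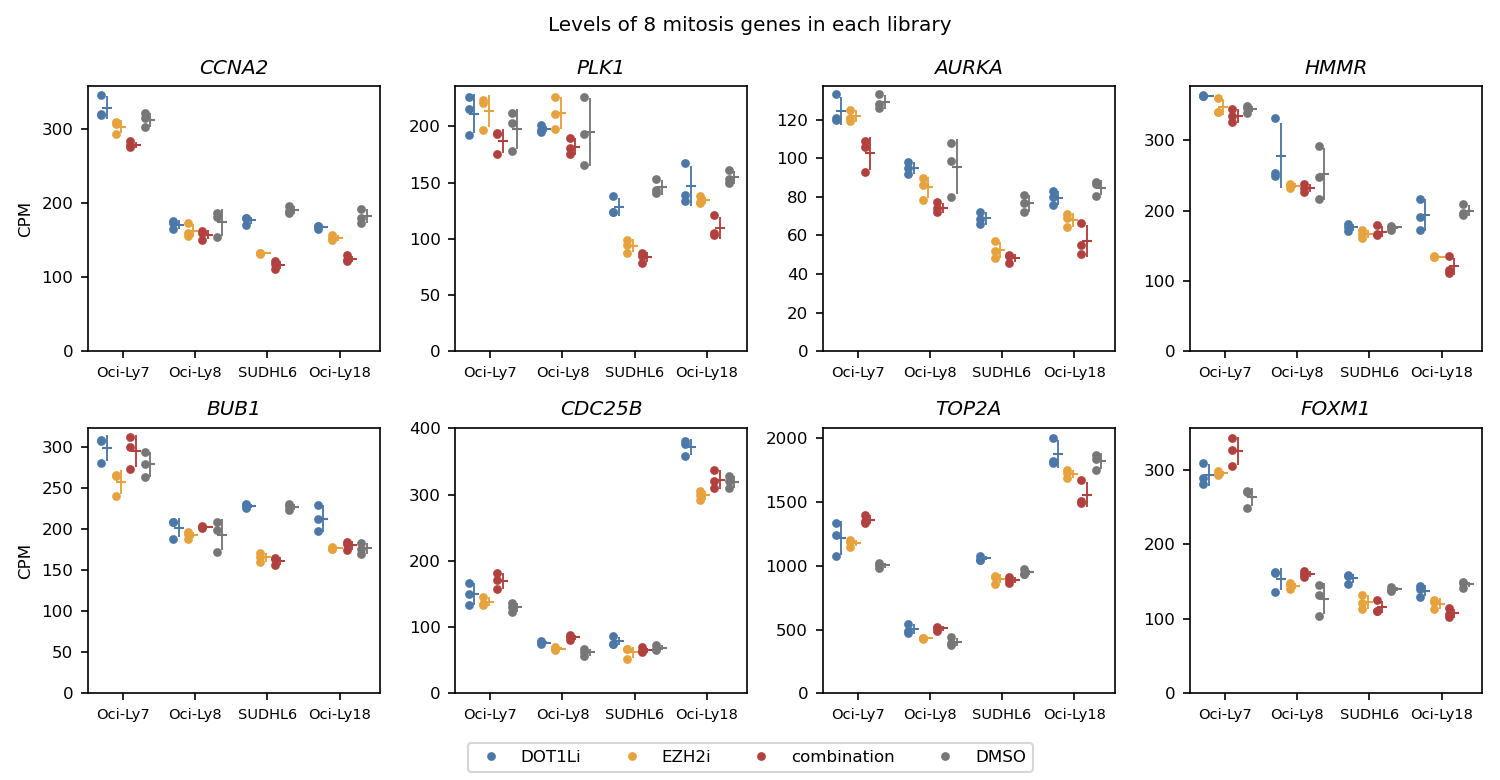
CPM of CCNA2, PLK1, AURKA, HMMR, BUB1, CDC25B, TOP2A and FOXM1 in each library, by line and treatment. AURKA is lower with the combination than with DMSO in every line, while TOP2A and CDC25B are higher in Oci-Ly7 and Oci-Ly8.

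Of the 5 spindle checkpoint genes, 4 fell with the combination in each of SUDHL6 and Oci-Ly18, and not the same 4. BUB1, a checkpoint kinase at kinetochores, had 163, 156 and 165 CPM with the combination against 230, 228 and 223 CPM with DMSO in SUDHL6 (-0.49 ± 0.06, adjusted p = 2.19e-08). In Oci-Ly18 it had 182, 174 and 184 CPM against 176, 183 and 170 CPM, which overlapped (0.03 ± 0.06, adjusted p = 0.782). BUB3, its partner, showed the opposite split, at -0.32 ± 0.07 in Oci-Ly18 (adjusted p = 8.09e-05) and -0.03 ± 0.06 in SUDHL6 (adjusted p = 0.808). BUB1B, a subunit of the complex that inhibits APC/C, had 158, 147 and 148 CPM against 234, 224 and 200 CPM in SUDHL6 and 181, 150 and 156 CPM against 226, 243 and 234 CPM in Oci-Ly18. TTK, the kinase that starts checkpoint signalling, and MAD2L1, which captures CDC20, fell in both lines as well, by 0.38 and 0.36 in SUDHL6 and by 0.35 and 0.31 in Oci-Ly18.

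Among the anaphase genes, CDC20, the APC/C activator, had 52.7, 49.3 and 50.4 CPM with the combination against 77.3, 72.5 and 74 CPM with DMSO in Oci-Ly18 (-0.55 ± 0.09, adjusted p = 1.1e-06) and fell in SUDHL6 as well (-0.21 ± 0.08, adjusted p = 0.0447). ESPL1, which encodes separase, fell in both lines, by 0.34 in SUDHL6 and by 0.49 in Oci-Ly18. PTTG1, which encodes its inhibitor securin, fell by 0.61 in Oci-Ly18 (adjusted p = 0.000757) and was at -0.10 ± 0.14 in SUDHL6. In Oci-Ly8 its fall of 0.51 (adjusted p = 0.00399) set 76.2, 84 and 79.4 CPM against 96.4, 88.9 and 156 CPM, where DMSO replicate 3 alone was high. With both libraries short of long transcripts left out it was -0.19 (adjusted p = 0.0533). UBE2C, the ubiquitin-conjugating enzyme of APC/C, was called in Oci-Ly7, where it rose by 0.25 ± 0.09 (adjusted p = 0.0308), and with the replicate as a block in SUDHL6, where it fell by 0.21 (adjusted p = 0.0207).

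All 6 centromere and kinetochore genes and all 6 tested spindle genes fell with the combination in Oci-Ly18, against 2 and 4 in SUDHL6, or 3 and 5 there with the replicate as a block, where NDC80 (-0.19, adjusted p = 0.0156) and ASPM (-0.27, adjusted p = 0.0458) fell too. Of these 12 genes, HMMR, CENPE and KIF2C differed between the lines when the difference itself was tested. NDC80, the microtubule-binding kinetochore subunit, had 202, 190 and 170 CPM with the combination against 258, 273 and 273 CPM with DMSO in Oci-Ly18 (-0.52 ± 0.08, adjusted p = 2.26e-06). KIF2C, a motor that depolymerises microtubules at kinetochores and whose promoter is printed above, had 111, 93.1 and 91.9 CPM against 152, 160 and 156 CPM in Oci-Ly18 (-0.66 ± 0.07, adjusted p = 6.65e-11) and 131, 127 and 114 CPM against 164, 162 and 156 CPM in SUDHL6 (-0.37 ± 0.07, adjusted p = 1.41e-05). HMMR, which helps assemble spindle poles, had 135, 112 and 116 CPM against 197, 209 and 194 CPM in Oci-Ly18 (-0.72 ± 0.08, adjusted p = 6.3e-10), the largest fold among the members there. In SUDHL6 it had 165, 166 and 179 CPM against 173, 178 and 177 CPM, which overlapped (-0.05 ± 0.08, adjusted p = 0.691). TPX2, which activates AURKA on the spindle, fell by 0.48 in SUDHL6 and by 0.39 in Oci-Ly18.

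Of the midzone and cytokinesis genes, KIF20A, KIF23, ANLN and ECT2 fell in both SUDHL6 and Oci-Ly18. ECT2, which switches on RhoA at the division plane, had 70.8, 68.8 and 72.2 CPM with the combination against 94.8, 97.4 and 82.6 CPM with DMSO in SUDHL6 (-0.38 ± 0.07, adjusted p = 3.54e-05). In Oci-Ly7 it had 204, 219 and 208 CPM against 168, 182 and 172 CPM, all higher (0.27 ± 0.07, adjusted p = 0.00182). TOP2A had 1340, 1400 and 1350 CPM against 1010, 1020 and 984 CPM in Oci-Ly7, a rise of 35.9% (0.44 ± 0.06, adjusted p = 2.43e-07), and 524, 512 and 492 CPM against 378, 396 and 439 CPM in Oci-Ly8 (0.33 ± 0.06, adjusted p = 4.76e-05, or 0.42 without the libraries short of long transcripts). In Oci-Ly18 it had 1670, 1490 and 1510 CPM against 1750, 1870 and 1840 CPM, a fall (-0.23 ± 0.06, adjusted p = 0.00405). FOXM1 had 305, 327 and 343 CPM against 249, 271 and 270 CPM in Oci-Ly7 (0.30 ± 0.08, adjusted p = 0.0015) and 114, 106 and 102 CPM against 142, 149 and 148 CPM in Oci-Ly18 (-0.45 ± 0.08, adjusted p = 7.82e-06). No combination library overlapped a DMSO library for TOP2A or FOXM1 in these comparisons. PRC1 and MKI67 were called in no line, against 27.5% of all genes. MKI67 had 1310, 1230 and 1150 CPM with the combination against 1600, 1690 and 1450 CPM with DMSO in Oci-Ly18. In SUDHL6 it had 1320, 1150 and 1240 CPM against 1380, 1430 and 1380 CPM. All combination libraries of these lines lay below their DMSO libraries, though neither change passed. In Oci-Ly7 and Oci-Ly8 its groups overlapped.

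Across lines, 24 members were lower with the combination in both SUDHL6 and Oci-Ly18, 60% of the 40, against 7.18% of all genes. CDC25B, CENPF, ECT2, TOP2A and FOXM1 were higher in both Oci-Ly7 and Oci-Ly8, against 7.06% of all genes. In Oci-Ly8 CENPF lost its call with both libraries short of long transcripts left out (0.21, adjusted p = 0.0748), where ECT2 kept its call (0.19, adjusted p = 0.0409). Without DMSO replicate 3 alone, with the trended spread kept from all 48 libraries, CENPF and ECT2 lost theirs (adjusted p = 0.193 and 0.112). Called lower in 1 or more lines and higher in another were 12 members, against 9.65% of all genes. The test that the 4 lines share 1 effect was rejected with the combination for 36 members, against 43.8% of all genes, with EZH2i for 21 members, against 24%, and with DOT1Li for ESPL1 alone, against 5.14%. For DOT1Li the count ran between 0 and 4 as single libraries were left out, and was 4 without Oci-Ly7 DOT1Li replicate 1, 3 without Oci-Ly8 DMSO replicate 2 or 3, 2 without Oci-Ly8 DMSO replicate 1 or DOT1Li replicate 3, and 0 without Oci-Ly8 DOT1Li replicate 1 or 2, Oci-Ly18 DMSO replicate 2 or 3, or any Oci-Ly18 DOT1Li replicate. CDK1, MAD2L1, PRC1 and MKI67 did not pass for the combination.

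A direct test of Oci-Ly18 against SUDHL6 was added after these values were seen. With the combination, HMMR fell further in Oci-Ly18, by 0.68 ± 0.11 (adjusted p = 1.4e-05), as did CENPE, CDC20, BUB3 and KIF2C, 5 of 40 members against 8.47% of all genes. BUB1 had fallen further in SUDHL6, a difference of 0.52 ± 0.09 (adjusted p = 2.42e-05), 1 of 40 against 8.41%. With EZH2i HMMR again differed (-0.49 ± 0.11, adjusted p = 0.00209, 1 of 40 against 5.71%), and BUB1 (0.45 ± 0.09, adjusted p = 0.000318), PLK1 (0.43 ± 0.12, adjusted p = 0.0128) and CCNA2 (0.27 ± 0.08, adjusted p = 0.0261) had fallen further in SUDHL6, 3 of 40 against 4.76%. Calls for HMMR and BUB1 held in all 18 alternatives with each treatment. The 5 combination calls in the direction of HMMR were 1 without SUDHL6 DMSO replicate 3, SUDHL6 combination replicate 1 or Oci-Ly18 combination replicate 3, 2 without Oci-Ly18 DMSO replicate 2 or combination replicate 2, 3 without SUDHL6 combination replicate 2 or 3 or Oci-Ly18 DMSO replicate 1 or 3, and 8 without Oci-Ly18 combination replicate 1. The EZH2i count of 1 was 2 without Oci-Ly18 DMSO replicate 1.

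**Figure D5:**
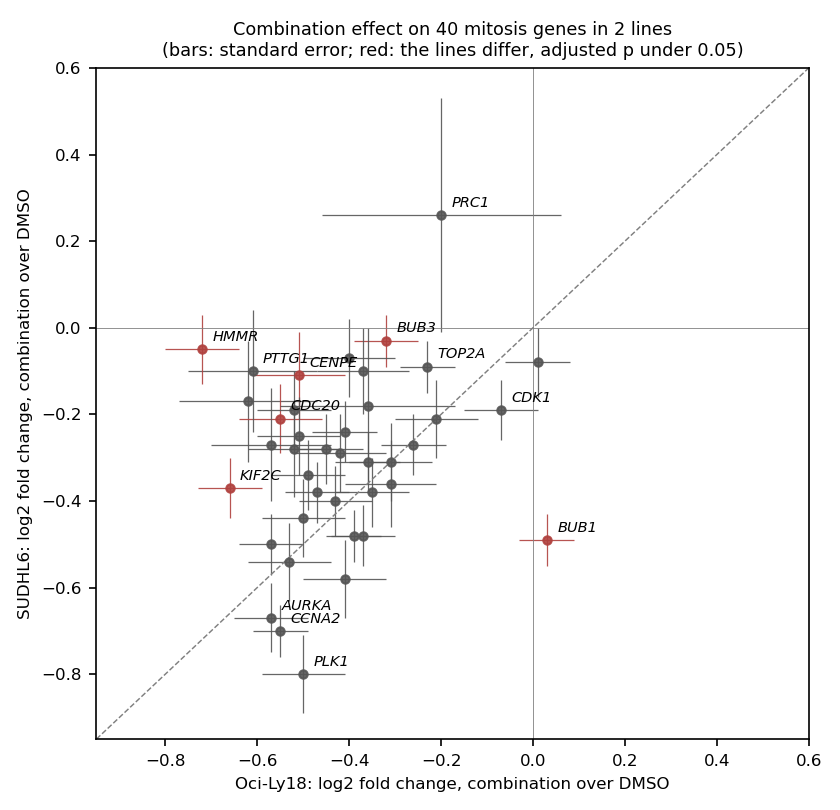
Log2 fold change with the combination against DMSO in Oci-Ly18 (x axis) and SUDHL6 (y axis), 1 point per tested member, with members whose effects differed between the 2 lines in red. HMMR lies at -0.72 in Oci-Ly18 and -0.05 in SUDHL6, and BUB1 at 0.03 and -0.49.

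Set against EZH2i alone, the combination lowered 12 members in Oci-Ly18, against 5.1% of all genes called lower and 7.69% called higher, with a median of -0.171. DLGAP5, a spindle protein, had 76.5, 65.6 and 64.5 CPM with the combination against 85.6, 94.4 and 89.5 CPM with EZH2i (-0.38 ± 0.07, adjusted p = 0.000105), with no overlap, and KIF2C (-0.34 ± 0.07, adjusted p = 0.000299) and CCNA2 (-0.30 ± 0.06, adjusted p = 0.000342) fell too. The count was 7 without EZH2i replicate 1 and 5 without EZH2i replicate 2 or combination replicate 2 or 3, and CCNA2, AURKB, KIF2C, TPX2 and DLGAP5 held in all 13 alternatives. In SUDHL6 no member passed, against 3.69% of all genes called lower and 3.43% called higher. There edgeR gave 7 members lower at an unadjusted p under 0.05 and DESeq2 called 1. With the replicate as a block CCNA2, NEK2, TTK and ECT2 fell. CDC25B and TOP2A rose with BUB1 in Oci-Ly7 (3 of 40, against 5.23% of all genes called higher and 3.6% called lower) and with ESPL1 in Oci-Ly8 (3 of 40, against 9.82% and 7.61%; 6 without the libraries short of long transcripts, with CENPF, ASPM and FOXM1). The Oci-Ly7 count was 1 without EZH2i replicate 1 or 2 or combination replicate 3, and 0 without combination replicate 2. Averaged over lines, the combination lowered 8 members relative to EZH2i, against 12.2% of all genes, and raised CDC25B (0.20 ± 0.04, adjusted p = 7.57e-05), against 12.8%. Relative to DOT1Li alone it lowered 34 members on average, against 15.8% of all genes called lower and 19.4% called higher, with a median of -0.201.

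Whether the 2 inhibitors acted additively on the log2 scale was tested as combination minus DOT1Li minus EZH2i plus DMSO. By edgeR no member departed in any line or on average, against 0.0507% of all genes in Oci-Ly7, 0.101% in Oci-Ly8, 0.0225% in SUDHL6, 0.361% in Oci-Ly18 and 0.0507% on average, and DESeq2 called none. At an unadjusted p under 0.05 edgeR gave 4 members in Oci-Ly7, 1 in Oci-Ly8, 4 in SUDHL6, 10 in Oci-Ly18 and 16 on average, all 16 below 0. The median departure was -0.087 in Oci-Ly7, -0.072 in Oci-Ly8, -0.129 in SUDHL6 and -0.138 in Oci-Ly18. The medians of all genes lay between -0.010 and 0.000 in these lines. On average 37 of 40 members lay below 0. As few genes of any kind were called, the lack of a call does not show additivity.

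Other genes of the cell cycle were read from the same fits. Of 67 further mitosis genes, the combination lowered 43 in SUDHL6, 64.2% against 16.8% of all genes, and 61 in Oci-Ly18, 91% against 14%, with medians of -0.280 and -0.424, and raised 1 in SUDHL6. In Oci-Ly7 it raised 18, 26.9% against 17.7% of all genes, and lowered 8, 11.9% against 12.2%. In Oci-Ly8 it raised 18, 26.9% against 18.1%, and lowered 5, 7.46% against 16.9%. On average 44 of the 67 fell, 65.7% against 20.7% of all genes, and 6 rose, 8.96% against 25.7%. Among the falls, RCC1, which loads the GTPase Ran with GTP at chromatin, fell by 0.38, and CDCA2 fell by 0.44. Of 45 G1/S and DNA replication genes, it lowered 41 in SUDHL6, 91.1% against 16.8% of all genes, and 43 in Oci-Ly18, 95.6% against 14%. In Oci-Ly7 it lowered 10, 22.2% against 12.2% of all genes, and raised 6, 13.3% against 17.7%, and in Oci-Ly8 it lowered 6, 13.3% against 16.9%, and raised 7, 15.6% against 18.1%. The helicase subunits MCM6 and MCM5 were at -0.46 and -0.39 and the origin protein ORC1 at -0.42 on average. Of 17 APC/C subunits, 11 fell on average, 64.7% against 20.7% of all genes, and 1 rose, 5.88% against 25.7%. Of 19 MuvB, E2F and pocket protein genes, 6 fell on average, 31.6% against 20.7% of all genes. Among them were the activator E2F2 at -0.54 and MYBL2, which encodes B-MYB, at -0.34. Only 3 rose, 15.8% against 25.7%, with RB1 at 0.32 and the repressor E2F7 at 0.42. The median of this list was -0.040.

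With the combination, calls among 8 genes named as CDK inhibitors were not in the same direction in every line. In Oci-Ly18 4 fell, 50% against 14% of all genes: CDKN2C by 1.06, CDKN2D by 0.84, CDKN1B, which encodes p27, by 0.55, and CDKN3 by 0.47. CDKN3 encodes a phosphatase and is counted here by its name. In Oci-Ly7 3 rose, 37.5% against 17.7% of all genes: CDKN2C at 0.43, CDKN1B at 0.29, and CDKN1C, which had 24 counts over the 3 combination libraries against 0 over the 3 DMSO libraries. In Oci-Ly8 CDKN2A fell by 0.49 and CDKN2C by 0.25, 2 of 8 against 16.9% of all genes. CDKN1A, which encodes p21, a p53 target, fell in SUDHL6 (-0.59 ± 0.16, adjusted p = 0.00219), the 1 inhibitor called there, and was at 0.44 ± 0.18 in Oci-Ly8 (adjusted p = 0.0598) and -0.08 ± 0.17 in Oci-Ly18, with 9 counts against 5 over the 3 libraries in Oci-Ly7. CDKN2C, CDKN2D and CDKN3 were called lower on average, 3 of 8 against 20.7% of all genes, where CDKN2C combined a rise in Oci-Ly7 with falls in Oci-Ly8 and Oci-Ly18. CDKN2A and CDKN2B had 0 counts in all SUDHL6 groups.

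The members differed in how closely they followed one another. After each line's mean was removed, the correlation over 48 libraries of a member with the median of the others had a median of 0.74, and was 0.7 or more for 24 of 40 members. These libraries share depth and composition, and the values are descriptive. KIF2C, at 0.96, and CCNB2, at 0.95, were highest, although the KIF2C window holds no CHR or CCAAT match. PRC1, at 0.00, MKI67, at 0.27, CDC25B, at 0.46, and CDK1, at 0.48, were lowest. Within lines, over 12 libraries each, MKI67 was at 0.77 in SUDHL6 and 0.93 in Oci-Ly18 but at -0.48 in Oci-Ly8, the line with the 2 libraries short of long transcripts, and CDK1 was at 0.89 in SUDHL6. Members with CHR and CCAAT in one window had a median combination effect on average of -0.111 (21 tested), against -0.201 for the 12 tested without both. In Oci-Ly18 these medians were -0.433 and -0.507, and in SUDHL6 -0.274 and -0.269.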

How the data were processed

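RNA was sequenced from 48 libraries of 4 lymphoma lines under 4 treatments; per the labels' protocols, libraries were made with a stranded poly(A) kit. The authors deposited raw counts per gene; the submitters' processing notes name STAR, DESeq2, GRCh38 and hg38, without versions. Each column was matched to its sample by its header. Members were found by symbol, and their promoter sequences are from RefSeq. The members and lists were chosen with earlier results of these data known.

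Counts were tested with edgeR 4.0.16 (R 4.3.3): filterByExpr over 16 groups kept 17749 genes and 40 of 41 members, with TMM scaling, 16 group means, 32 residual degrees of freedom, robust quasi-likelihood F tests and Benjamini-Hochberg adjustment over all genes. The steps were tested on simulated data. CPM used edgeR's effective library sizes, and RPKM exonic lengths. Values in every library are given mainly for members under set rules. These are a set list, the 3 called members of largest fold in each direction, and the 5 with the smallest p between lines. Not every such member has its values printed. HMMR and BUB1 fall under the fold and p rules. Companion genes named have the smallest adjusted p.

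Deviations from group means of same-numbered libraries correlated above 0.1, the limit set for pairing, in all 18 pairs of SUDHL6 (lowest 0.147). The numbers were therefore taken to pair libraries there. In Oci-Ly7, Oci-Ly8 and Oci-Ly18, 13, 14 and 13 of 18 pairs passed that limit. Every pair was above 0 in these lines too, the lowest at 0.0379, 0.0545 and 0.077. Pairs of unlike number reached 0.0732 in Oci-Ly7 and 0.351 in Oci-Ly8. Alternatives were DESeq2 1.42.0, its size factors in edgeR, no filter on low counts, a replicate block, protein-coding genes alone, each line alone, both short-transcript libraries left out, and each library left out. Runs without 1 library kept the scaling and the trended estimate of spread from all 48 libraries. The left-out library therefore still bore on those runs, while the other alternatives were fitted anew. Libraries of 1 group differed beyond sampling noise, with a chi-square per degree of freedom of at least 1.87.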

Additional observations from a re-analysis of the deposited data

Results flagged for a closer look

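The effect of the combination differed between lines for 36 members and that of EZH2i for 21, by the edgeR F test of equal effects, adjusted over all genes. For the combination the smallest adjusted p-values belonged to ECT2 (3.62e-09), FOXM1 (7.93e-09), KIF2C (1.06e-08), TOP2A (1.33e-08) and CCNA2 (7.19e-08). ECT2, FOXM1 and TOP2A rose in Oci-Ly7 and Oci-Ly8 and fell in Oci-Ly18, and KIF2C fell in SUDHL6 and Oci-Ly18, at 0.05 and 0.04 in Oci-Ly7 and Oci-Ly8. For EZH2i they belonged to PLK1 (3.56e-06), ECT2 (3.46e-05), CCNA2 (4.97e-05), BUB1 (0.000206) and HMMR (0.000304). PLK1 was at 0.11 in Oci-Ly7, 0.12 in Oci-Ly8, -0.63 in SUDHL6 and -0.20 in Oci-Ly18. For DOT1Li, 1 member differed, ESPL1 (0.0332), at 0.16 in Oci-Ly7, 0.28 in Oci-Ly8, 0.17 in SUDHL6 and -0.17 in Oci-Ly18. What these differences rest on was not tested.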

How the results depend on the processing

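No single member's effect that was called changed sign in any alternative run, while the EZH2i count in Oci-Ly8 was 0 higher and 7 lower without DMSO replicate 1, against 2 higher and 0 lower with all libraries. The counts for the combination in SUDHL6 and Oci-Ly18, for EZH2i in Oci-Ly18 and for both averages against DMSO stayed within 1.5 times in every alternative that kept all libraries of the groups compared. PRC1, with 10 to 47 counts a library, had standard errors of 0.22 to 0.28 against DMSO in single lines, and MKI67, with a median of 19130 counts, had 0.18 to 0.19. Counts in Oci-Ly8 rest on 2 libraries short of long transcripts, and the cause of that shortage was not tested. Counts of members follow, called higher unless stated; where an alternative moved a value, the cause was not tested.

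With a replicate block, DOT1Li gave 4 in Oci-Ly7, 1 in SUDHL6, 2 higher and 1 lower in Oci-Ly18 and 9 on average; EZH2i in Oci-Ly8 gave 4 higher and 1 lower; the combination against EZH2i gave 3 lower in Oci-Ly7, 2 lower in Oci-Ly8, 4 lower in SUDHL6 and 4 higher on average. With that block 6 members differed between lines with DOT1Li, 2 were lower in the EZH2i difference between Oci-Ly18 and SUDHL6, and 8 lower and 2 higher in the combination difference. In SUDHL6, where numbers pair the libraries, EZH2i gave 24 lower with the block. In the other lines not all pairs passed the limit set for pairing, so the block stands there as an alternative; in Oci-Ly18 every same-numbered pair (lowest correlation 0.077) lay above every other pair (highest 0.0352), a hint from the data and not from the design.

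With both short-transcript libraries left out, DOT1Li gave 2 in Oci-Ly7, 1 in SUDHL6, 2 higher and 1 lower in Oci-Ly18, 9 on average and 4 differing between lines. EZH2i gave 1 lower in Oci-Ly7 and 29 lower in SUDHL6, with a median of 0.033 in Oci-Ly8. The combination gave a median of 0.014 in Oci-Ly7 and 1 lower in Oci-Ly8, with a median of 0.106. Against EZH2i it gave 2 lower in Oci-Ly7, 6 higher in Oci-Ly8, 4 lower in SUDHL6, 20 lower in Oci-Ly18 and 4 higher on average. Between Oci-Ly18 and SUDHL6, 3 were lower with EZH2i and 8 with the combination.

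With each line fitted alone, DOT1Li gave 2 in Oci-Ly7, 1 in Oci-Ly8, 1 higher and 1 lower in SUDHL6 and 2 higher and 2 lower in Oci-Ly18. EZH2i gave 5 higher and 1 lower in Oci-Ly7, 0 higher in Oci-Ly8 with a median of 0.011, and 33 lower in SUDHL6. The combination gave 1 lower and 5 higher in Oci-Ly8 with a median of 0.054, and against EZH2i 1 lower in Oci-Ly7, 1 higher in Oci-Ly8 and 5 lower in SUDHL6.

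With DESeq2, DOT1Li gave 1 in SUDHL6, 2 in Oci-Ly18 and 2 differing between lines, and the combination against EZH2i gave 1 lower in Oci-Ly7, 1 lower in SUDHL6 and 2 higher on average. Medians in Oci-Ly8 were 0.021 for EZH2i, 0.074 for the combination and 0.067 for the combination against EZH2i, and 2 were lower in the EZH2i difference between Oci-Ly18 and SUDHL6. Its size factors in edgeR gave the same medians of 0.021, 0.074 and 0.067, and 2 higher for the averaged combination against EZH2i.

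With protein-coding genes alone, DOT1Li gave 2 in Oci-Ly18, EZH2i 1 lower in Oci-Ly8 with a median of 0.008, and the combination a median of 0.074 there. Against EZH2i it gave 2 lower in Oci-Ly7, a median of 0.080 in Oci-Ly8, 1 lower in SUDHL6 and 2 higher on average. The departure from additivity in Oci-Ly8 had a median of -0.055, and 2 were lower in the EZH2i difference between Oci-Ly18 and SUDHL6.

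With no filter on low counts, EZH2i gave 1 in Oci-Ly7 and 1 higher and 1 lower in Oci-Ly8 with a median of 0.010. The combination gave 1 lower in Oci-Ly7 and a median of 0.052 in Oci-Ly8, DOT1Li gave 3 on average and 0 differing between lines, and the averaged combination against EZH2i gave 2. The departure from additivity in Oci-Ly8 had a median of -0.057, and 2 were lower in the EZH2i and 3 in the combination difference between Oci-Ly18 and SUDHL6.

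Leaving out 1 library at a time, DOT1Li gave 0 to 4 in Oci-Ly7, 2 to 9 higher and 0 to 1 lower in Oci-Ly8, 0 to 1 in Oci-Ly18, 3 to 7 on average, 0 to 4 differing between lines and a median of 0.025 to 0.082 in SUDHL6. EZH2i gave 1 to 2 in Oci-Ly7 with a median of -0.003 to 0.063, 0 to 6 higher and 0 to 7 lower in Oci-Ly8 with a median of -0.044 to 0.024, and 12 to 19 lower in Oci-Ly18 with a median of -0.252 to -0.178. The combination gave 1 to 3 lower and 5 to 8 higher in Oci-Ly7, and 1 to 7 lower and 5 to 13 higher in Oci-Ly8 with a median of -0.009 to 0.079. Against EZH2i it gave 0 to 1 lower and 0 to 3 higher in Oci-Ly7, a median of 0.029 to 0.069 in Oci-Ly8 and 5 to 15 lower in Oci-Ly18. Departures from additivity had medians of -0.127 to -0.048 in Oci-Ly7 and -0.103 to -0.039 in Oci-Ly8. Between Oci-Ly18 and SUDHL6, 1 to 2 were lower with EZH2i and 1 to 8 with the combination.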
